A study of Mus musculus with 4 samples.

Results

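Leukocyte adhesion molecules of endothelium were examined in semilunar (aortic and pulmonary) valve leaflets from mouse neonates. The members were the 8 genes Vcam1, Icam1, Icam2, Sele, Selp, Cd34, Mcam and Alcam, taken by symbol, and every probe set annotated to 1 of these symbols alone was included. This gave 16 of the 45037 non-control probe sets, for 8 of 18193 genes. The mutant group was Cxcr7-/- neonates and the comparison group, named Control, was their wildtype littermates; their pools are called mutant and wildtype pools here, and no other allele, agent or promoter is named in the labels. Each genotype had 2 pools of 3 neonates on 1 array each, and a mutant contributed 4 to 6 leaflets where a wildtype contributed 6. Cxcr7, listed under its current symbol Ackr3, is an atypical receptor that binds the chemokine CXCL12 and removes it from the surroundings. Mutant pools gave 28.3 and 328 for it and wildtype pools 4936 and 5698, which matches the labels. The question was whether transcripts of the molecules that catch leukocytes on endothelium differ in leaflets without the receptor.

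Leukocytes leave the blood in steps. The selectins E (Sele) and P (Selp) on activated endothelium hold rolling leukocytes by their sugars, after which VCAM1, ICAM1 and ICAM2, members of the immunoglobulin superfamily, bind leukocyte integrins and stop the cells. Inflammatory cytokines acting through NF-kB induce Sele, Vcam1 and Icam1 in endothelium, whereas ICAM2 is carried by resting endothelium. CD34 is a sialomucin of endothelium and of some fibroblast-like and progenitor cells, MCAM (CD146) sits at endothelial junctions and on pericytes, and ALCAM (CD166) binds CD6 on T cells and is made by many other cells. Valve leaflets hold an endothelial layer over interstitial cells, with resident macrophages, and several of these molecules are also made outside endothelium.

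Signals are MAS5 values in linear units, scaled by the authors to the same trimmed mean of 500.003 on all 4 arrays. Differences are given as log2 fold changes, Cxcr7-/- minus Control, of log2(signal + 22) with the standard error of the limma model. Of the 16 member probe sets, 13 passed the filter on dim signal (mean log2 value above the median of all probe sets), and they covered all 8 genes. 1 array, Control replicate 2, lay away from the rest. Its score on the first principal component, which held 45.0% of the variance, was 64.9 against 6.42 in Control replicate 1. The mutant pools scored -36.4 and -34.9, so the component also separated the genotypes. The 3' to 5' ratio of the Gapdh control probe sets was 24.2 in Control replicate 2 against 8.20 to 12.7 in the others. The same ratio of the actin control probe sets was 20.2 and 19.1 in wildtype and 15.5 and 11.7 in mutant pools. Both ratios, which rise as RNA is degraded or amplification falls short of the 5' end, were higher in both wildtype pools than in both mutant pools (by 12.7 against 12.6 at the narrowest, for Gapdh), and their part in the members' values was not tested. No label says that the pools came from separate litters or days, so p-values measure the spread between these pools only.

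None of the 13 member probe sets passed the adjusted threshold of 0.05 in limma, and 1 of 13 had an unadjusted p under 0.05. Over all 22518 probe sets kept, 0% passed the adjusted threshold and 10.1% had an unadjusted p under 0.05, 3.94% higher and 6.18% lower in mutant pools. The genotypes did not overlap in 6 of the 13. In 4 of them both mutant pools were above both wildtype pools, beside 20.1% of all probe sets kept. In the other 2 both were below, beside 22.3%. Taking each gene by its brightest probe set, the mutant pools lay above for Vcam1, Sele and Selp, below for Icam1, and overlapped the wildtype pools for Icam2, Cd34, Mcam and Alcam. The 4 non-overlapping higher probe sets include 2 of the same gene, and no member was 2-fold apart or more in each of the 4 cross comparisons, a rule on the log2(signal + 22) scale that 0.293% of probe sets kept met upward and 0.773% downward.

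**Figure D1:**
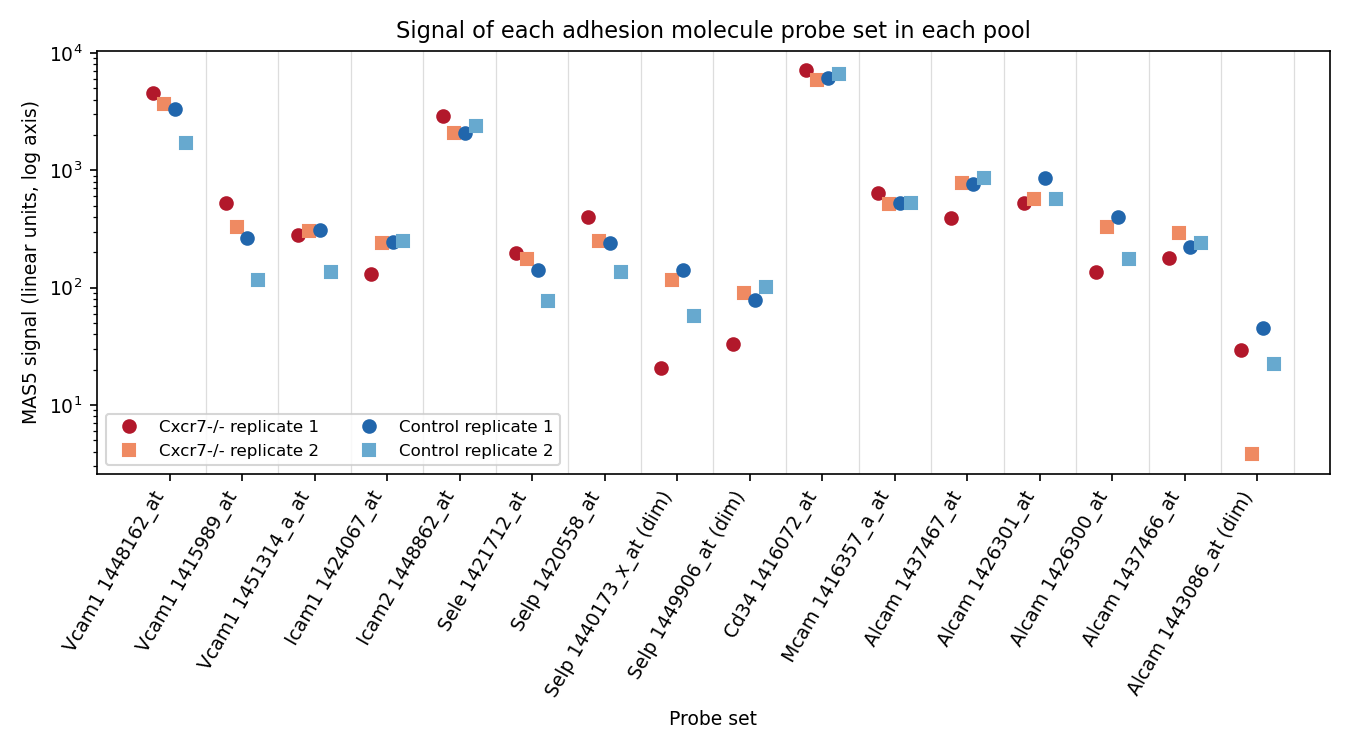
MAS5 signal (log axis) of the 16 member probe sets in each of the 4 pools; circles are replicates 1, squares replicates 2, and dim marks probe sets below the filter. Control replicate 2 is the lowest pool for the 3 Vcam1 probe sets, Sele and the kept Selp probe set, and Cxcr7-/- replicate 1 is the lowest for Icam1 and the 4 kept Alcam probe sets.

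VCAM1 is the endothelial ligand of the integrin VLA-4, and its gene had the largest differences of the members. Probe set 1448162_at read 4594 and 3679 in mutant and 3321 and 1699 in wildtype pools. Both mutant pools were above both wildtype pools, and the mean signals stood in a ratio of 1.65. This is a log2 fold change of 0.79 ± 0.34 (SE, 2 pools a genotype), with a 95% interval of -0.00 to 1.57 and an adjusted p of 0.497. Probe set 1415989_at read 525 and 325 against 263 and 116. The genotypes again did not overlap, with a ratio of mean signals of 2.24. This was the 1 member probe set under an unadjusted p of 0.05, at 1.14 ± 0.45 with an adjusted p of 0.466 in limma. The third probe set, 1451314_a_at, read 280 and 305 against 312 and 135. Here Control replicate 1 was the highest of the 4 pools, so the genotypes overlapped (0.46 ± 0.43, adjusted p = 0.746).

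Control replicate 2 had the lowest signal of all 3 Vcam1 probe sets, and the gap between the wildtype pools (0.96, 1.05 and 1.09 log2) was near or above the genotype difference each time. With that pool left out, the log2 fold changes were 0.31 for 1448162_at, 0.61 for 1415989_at and -0.09 for 1451314_a_at. With Control replicate 1 left out, which left Control replicate 2 as the lone wildtype pool, they were 1.26, 1.66 and 1.00 in the same order. Leaving out Cxcr7-/- replicate 1 gave 0.63, 0.81 and 0.51, and leaving out Cxcr7-/- replicate 2 gave 0.94, 1.46 and 0.40. Control replicate 2 also had the highest score on the first principal component, which separated the genotypes as well. The part of that component in the Vcam1 values was not tested.

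ICAM1 binds the leukocyte integrins LFA-1 and Mac-1. Its single probe set read 130 and 241 in mutant and 245 and 251 in wildtype pools. Cxcr7-/- replicate 1 was low and Cxcr7-/- replicate 2 was close to both wildtype pools, so the groups were separate by a narrow margin. The log2 fold change was -0.44 ± 0.39 (adjusted p = 0.736), and it was -0.04 without Cxcr7-/- replicate 1 and -0.83 when Cxcr7-/- replicate 2 was left out. ICAM2, the ICAM of resting endothelium and platelets, read 2915 and 2083 against 2060 and 2362. The genotypes overlapped, and the log2 fold change of 0.16 ± 0.27 had a 95% interval of -0.46 to 0.78 (adjusted p = 0.874). It was -0.08 without Cxcr7-/- replicate 1. Icam1 and Vcam1, which share cytokine induction in endothelium, thus had log2 fold changes of opposite sign, and neither passed the test.

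The selectin genes read higher in both mutant pools by the probe set with the brightest signal. Sele read 197 and 176 in mutant and 142 and 77.0 in wildtype pools. The order was the same as for the brightest Vcam1 probe set, with Cxcr7-/- replicate 1 highest and Control replicate 2 lowest. The ratio of mean signals was 1.70 and the log2 fold change 0.71 ± 0.41 (95% interval -0.24 to 1.65, adjusted p = 0.603). Without Control replicate 2 it was 0.34, and leaving out Control replicate 1 made it 1.07. For Selp, which is stored in endothelial cells and in platelets, probe set 1420558_at read 397 and 250 against 239 and 136. Cxcr7-/- replicate 2 and Control replicate 1 were close, although the genotypes did not overlap (0.73 ± 0.40, adjusted p = 0.587). Leaving out Control replicate 2 made it 0.37 and Cxcr7-/- replicate 1 0.42, whereas leaving out Control replicate 1 made it 1.09.

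The other Selp probe sets were below the filter and had no test. Probe set 1440173_x_at read 20.5 and 116 in mutant and 142 and 57.2 in wildtype pools, and 1449906_at read 32.7 and 89.1 against 78.4 and 100.4. Both had a negative log2 difference, -0.57 and -0.51, with overlapping genotypes, so the probe sets of Selp disagreed in sign. Cxcr7-/- replicate 1 had the highest Selp signal by 1420558_at and the lowest by the other two.

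The upstream sequences of Sele, Selp and Icam1 are shown because these genes share inducible expression on endothelium and differed in sign here. They are the 250 bases before the RefSeq start (build GRCm38.p6), on the gene's strand. Sele lies at chr1:164047984-164048233, Selp at chr1:164115014-164115263 and Icam1 at chr9:21015690-21015939, all on the plus strand. Capitals mark matches of the forms described after them.
Sele: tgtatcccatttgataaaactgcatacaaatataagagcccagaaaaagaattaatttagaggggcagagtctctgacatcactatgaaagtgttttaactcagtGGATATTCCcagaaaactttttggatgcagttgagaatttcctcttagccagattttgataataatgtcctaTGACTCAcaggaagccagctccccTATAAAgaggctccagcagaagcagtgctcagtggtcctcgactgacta
Selp: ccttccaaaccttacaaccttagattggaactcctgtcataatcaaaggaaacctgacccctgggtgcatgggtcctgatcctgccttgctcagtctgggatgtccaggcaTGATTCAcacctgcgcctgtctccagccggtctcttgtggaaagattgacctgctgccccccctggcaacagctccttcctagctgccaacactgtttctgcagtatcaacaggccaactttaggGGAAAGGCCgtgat
Icam1: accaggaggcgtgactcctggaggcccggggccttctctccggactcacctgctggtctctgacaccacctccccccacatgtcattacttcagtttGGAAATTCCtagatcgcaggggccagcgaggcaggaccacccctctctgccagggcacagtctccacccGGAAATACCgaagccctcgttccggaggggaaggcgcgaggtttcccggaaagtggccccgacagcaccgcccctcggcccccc

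Each motif was searched on both strands. A relaxed form of the AP-1 element, TGANTCA, with any middle base, was found in Sele and Selp. In Sele it reads TGACTCA, 73 to 67 bases before the start. In Selp it reads TGATTCA, 139 to 133 bases before the start, which is not the AP-1 consensus with C or G in the middle. Of the 6 members with an upstream sequence (Icam1, Sele, Selp, Cd34, Mcam and Alcam) 2 held the relaxed form, beside 6.75% of 32851 windows of the same length. The TATA box TATAAA was found in Sele alone of the 6, 49 to 44 bases before the start, beside 12.4% of all windows. The kappaB consensus was in none of the 6 and in 3.9% of all windows. A relaxed kappaB form, GGNNNTTCC, chosen after the sequences were seen, was in Sele, Selp and Icam1 and in 15.7% of all windows. In Icam1 one of its matches fits the form on both strands, with different letters, 153 to 145 bases before the start. These matches describe letters and not bound sites.

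Sele and Selp lie on chromosome 1 in RefSeq. Cd34 and Ackr3 are on the same chromosome, Ackr3 391 protein-coding genes away from Sele and 684 from Cd34 in that order. The other members are on chromosome 3 (Vcam1), 9 (Icam1 and Mcam), 11 (Icam2) and 16 (Alcam).

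Cd34 was the member with the smallest genotype difference by the brightest probe set. Its signals were 7149 and 5889 in mutant and 6064 and 6654 in wildtype pools. The wildtype pools lay between the mutant pools, and the log2 fold change of 0.03 ± 0.23 had a 95% interval of -0.49 to 0.55 (adjusted p = 0.974). Its sign turned when Cxcr7-/- replicate 1 (-0.11) or Control replicate 1 (-0.04) was left out. Mcam read 635 and 511 against 524 and 528. The wildtype pools were nearly equal and again lay between the mutant pools, at 0.11 ± 0.29 (95% interval -0.57 to 0.79, adjusted p = 0.923), and -0.04 without Cxcr7-/- replicate 1.

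Alcam had 5 probe sets, 4 of them kept, and all 4 were lowest in Cxcr7-/- replicate 1. The brightest, 1437467_at, read 395 and 781 in mutant and 757 and 861 in wildtype pools. Cxcr7-/- replicate 2 lay between the wildtype pools, and the log2 fold change was -0.52 ± 0.37 (adjusted p = 0.665). Without Cxcr7-/- replicate 1 it was -0.05, and leaving out Cxcr7-/- replicate 2 made it -0.99. Probe set 1426301_at read 523 and 569 against 862 and 574, so that the genotypes were separate by a narrow margin (-0.35 ± 0.31, adjusted p = 0.732). Without Control replicate 1 it was -0.07, and leaving out Control replicate 2 made it -0.64. The probe sets 1426300_at (-0.30 ± 0.52) and 1437466_at (-0.00 ± 0.37) overlapped, at adjusted p = 0.877 and 0.998. The dim probe set 1443086_at read 29.5 and 3.78 against 45.4 and 22.2. The Alcam probe sets thus ranged from -0.58 to -0.00 on the log2 scale.

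**Figure D2:**
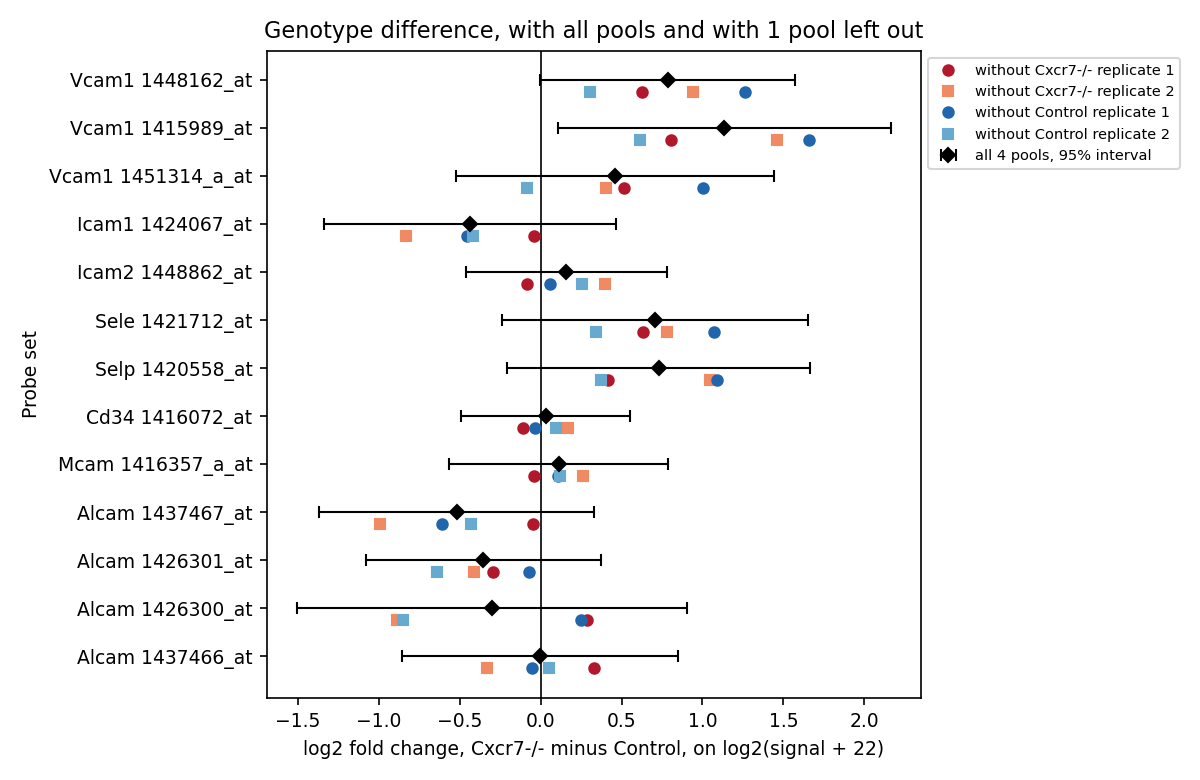
Log2 fold change of the 13 kept member probe sets (black diamonds, with the 95% interval of the limma model) and the value with 1 pool left out (coloured points). The interval of 1415989_at of Vcam1 alone lies above 0, and leaving out Control replicate 2 brings all 3 Vcam1 probe sets, Sele and Selp to 0.61 or lower.

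The spread between pools of 1 genotype was set beside each difference. In 11 of the 13 kept probe sets, the larger of the gaps between replicate pools exceeded the difference between genotypes. The exceptions were 1415989_at of Vcam1 (1.14 against a gap of 1.05 between the wildtype pools) and 1420558_at of Selp (0.73 against 0.72). The same count was not made over all probe sets kept, so 11 of 13 is not read as a trait of the members. The median absolute difference between genotypes over all probe sets kept was 0.31. The median gap of the members was 0.48 between the mutant pools and 0.57 between the wildtype pools. Over all probe sets kept the same medians were 0.28 and 0.40, below those of the members. The median log2 fold change of the 13 was 0.11 (8 positive, 5 negative), beside -0.02 over all probe sets kept. Of 8 genes by the brightest probe set, 6 were positive and 2 negative, with a median of 0.13 beside 0.00 for all genes tested.

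**Figure D3:**
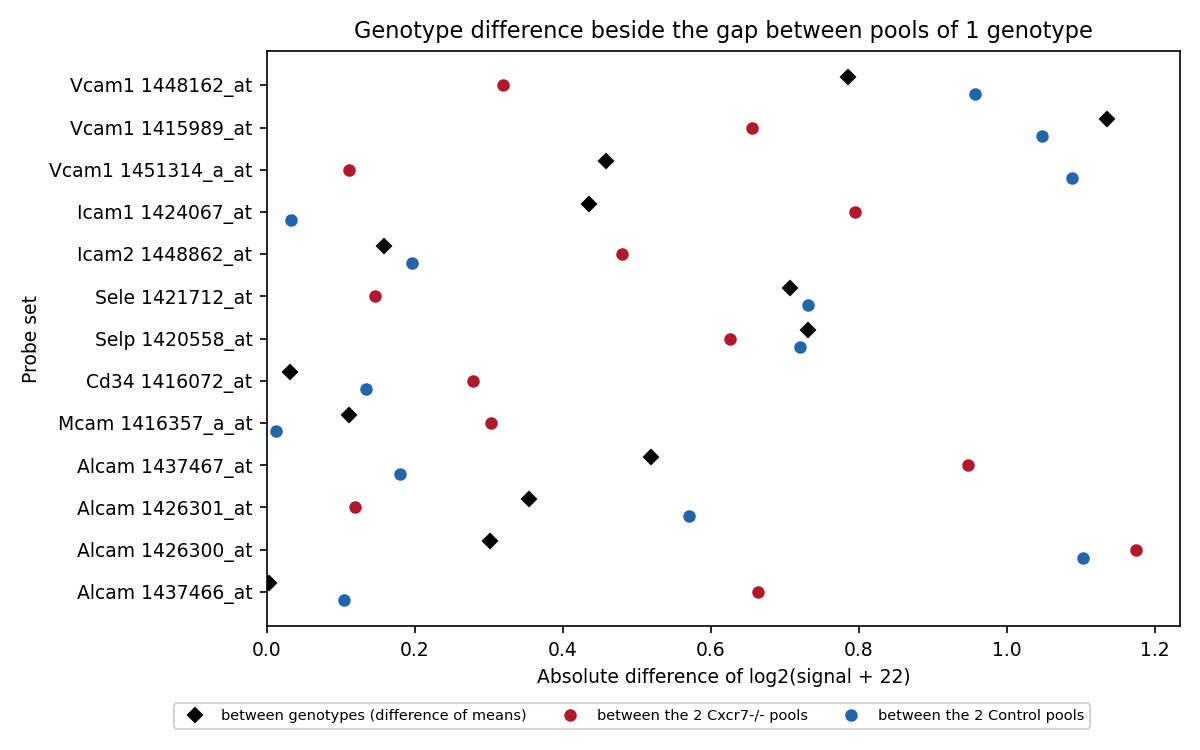
Absolute difference of log2(signal + 22) between genotypes (black diamonds), between the mutant pools (red) and between the wildtype pools (blue) for the 13 kept member probe sets. A replicate gap lies to the right of the diamond in 11 of them; the Control gap is the wider one for Vcam1 and Sele, and the Cxcr7-/- gap for Icam1, Icam2, Cd34 and Mcam.

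The leukocyte side was described next, through a list of integrins and selectin ligands, called counter-receptors here. Most bind a member, but Itgb3 and Itgav on the list are not established partners of the members. Of 18 listed genes 16 were on the array by a single-symbol probe set and 11 were kept. Of the 11, 0 passed the adjusted threshold in limma, 4 were higher and 0 lower at an unadjusted p under 0.05, and 7 were not. The background over 11260 genes was 3.93% higher and 4.03% lower. The mutant pools were above the wildtype pools for 5 of the 11 and below for 0, beside 21.1% and 19.1% of all genes. The median log2 fold change was 0.01, beside 0.00 for all genes.

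The beta 1 integrin Itgb1, a chain of VLA-4 found on most cell types, read 2448 and 2208 in mutant and 1559 and 1126 in wildtype pools (0.80 ± 0.27, adjusted p = 0.444). Cd44, a hyaluronan receptor that also carries selectin ligands, read 7709 and 7100 against 4614 and 5148 (0.60 ± 0.22, adjusted p = 0.454). Both genes had mutant pools close together and above the wildtype pools. Itgal, the leukocyte-restricted alpha chain of LFA-1 that binds ICAM1 and ICAM2, read 326 and 240 against 143 and 144 (0.86 ± 0.35, adjusted p = 0.473). The beta 3 chain Itgb3 read 390 and 684 against 280 and 284 (0.83 ± 0.36, adjusted p = 0.492).

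Itga4 and Itgb2, partner chains of Itgb1 and Itgal, overlapped between genotypes, as did Selplg, and all were named after their values were seen. Itga4, the alpha chain of VLA-4, read 266 and 380 in mutant and 470 and 254 in wildtype pools. Itgb2, the beta chain of LFA-1 and Mac-1, read 318 and 207 against 299 and 217. Selplg, the main P-selectin ligand, read 93.6 and 120 against 188 and 93.2. The genes below the filter were Itgam, Itgax, Itgb7, Spn and Cd6, the last being the ligand of ALCAM. Of these, Itgax read 12.5 and 58.4 in mutant and 69.3 and 97.5 in wildtype pools, and Spn 71.0 and 64.1 against 109 and 71.3. For Itgax and Spn both mutant pools were below both wildtype pools, and the other dim genes overlapped. The count of 4 genes was 1 with Cxcr7-/- replicate 1 left out, 0 when Cxcr7-/- replicate 2 was, 2 when Control replicate 1 was and 1 when Control replicate 2 was. It was 1 with the replicate number as a block and 2 with no filter, with the filter at the 75th percentile or with no intensity trend.

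Macrophage and other leukocyte markers were also higher in the mutant pools. All 20 listed markers were kept and had positive differences, with a median of 0.76, 10 with an unadjusted p below 0.05 and 16 with separate genotypes, beside 3.93% and 21.1% of all genes in that direction. Their summed signal was 30562 and 27370 in mutant and 21150 and 17257 in wildtype pools. Centred on the mean of these markers, a setting added after the data were seen, Itgal was at 0.02, Itgb1 at -0.05, Itgb3 at -0.02 and Cd44 at -0.25, and of the 11 counter-receptors 0 were higher and 6 lower at an unadjusted p under 0.05, 2 of them past the adjusted threshold. In that setting Itga4 was at -0.96, Selplg at -1.12 and Itgb2 at -0.84, beside a median of -0.84 over all genes. In pooled tissue, fewer cells of a type and less RNA per cell cannot be told apart. The part of leukocyte content in the members' values was not tested.

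The endothelial marker list was read beside the members. All 24 listed markers were kept, Pecam1, Cdh5 and Tek included, as the labelled leaflets with their endothelial cover would give. Of these, 0 were higher and 5 lower at an unadjusted p under 0.05, 12 had mutant pools below both wildtype pools and 1 above, and the median was -0.12. Over all genes 4.03% were lower at that p, 19.1% had separate genotypes and were lower, and 21.1% separate and higher. Median centring put the endothelial median at 0.02, with 13 of 24 positive and 3 lower at that p, and leaving out Control replicate 1 put it at -0.28. Their summed signal was 48031 and 47906 in mutant and 55792 and 64321 in wildtype pools. The claudin gene Cldn5 (-1.73 ± 0.26), Vwf (-0.83 ± 0.24), Robo4 (-1.24 ± 0.41) and Egfl7 (-1.14 ± 0.40) were the lowest by p among those with separate genotypes. None passed the adjusted threshold, the smallest adjusted p on the arrays being 0.400. Relative to the mean of these markers, which was lower by 0.31 log2 in mutant pools, the brightest probe sets were at 1.09 for Vcam1, 1.02 for Sele, 1.04 for Selp, 0.47 for Icam2, 0.42 for Mcam, 0.34 for Cd34, -0.13 for Icam1 and -0.21 for Alcam. None of these passed either, and the same centring raised the median of all genes to 0.31. Relative to the mean of the macrophage and other leukocyte markers, a setting added after the data were seen, the sign turned to -0.06 for Vcam1, -0.14 for Sele, -0.12 for Selp, -0.69 for Icam2 and -0.74 for Mcam. In the same setting Cd34 was at -0.82 (adjusted p = 0.0492), Icam1 at -1.28 (adjusted p = 0.0496) and Alcam at -1.37 (adjusted p = 0.0411), all past the threshold. That centring lowered the median of all genes to -0.84, and 6837 probe sets passed. Of the Vcam1 probe sets 1415989_at kept its sign there, at 0.29, and the values of Vcam1, Sele and Selp lay within 1 standard error of 0.

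Platelet markers bear on Selp, and 5 of 11 listed were kept, with 0 at an unadjusted p under 0.05 and a median of -0.29. Pf4, a platelet chemokine, read 2880 and 1934 in mutant and 1629 and 1419 in wildtype pools. The platelet receptor chain Gp1bb read 78.5 and 148 against 158 and 278, and Treml1 read 74.8 and 87.7 against 123 and 93.2. The summed signal of the list was 3392 and 2646 against 2486 and 2253, most of it Pf4, and its part in Selp was not tested.

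Among other adhesion and transmigration molecules of endothelium, 19 of 25 genes were kept. None was at an unadjusted p under 0.05, 3 were separate and higher, 2 separate and lower (beside 21.1% and 19.1% of all genes), and the median was 0.06. VE-cadherin (Cdh5), the adherens junction protein of endothelium, read 598 and 404 in mutant and 705 and 719 in wildtype pools (-0.51 ± 0.31). The sialomucin Podxl2 was at -0.86 ± 0.38, the nectin-like receptor gene Pvr at 0.69 ± 0.35 and the tetraspanin Cd9 at 0.50 ± 0.26. PECAM1, which leukocytes engage while crossing, read 204 and 247 against 226 and 204, and was named after its values were seen. The homing ligand Madcam1 and Icam4 were among the 6 genes below the filter.

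Genes of cytokine input and NF-kB, the pathway that induces Sele, Vcam1 and Icam1, had differences of both signs. Of 30 listed genes 23 were kept, with a median of -0.09. At an unadjusted p under 0.05, 1 was higher and 0 lower, beside 3.93% and 4.03% of all genes. Of the 23, 4 were separate and higher and 5 separate and lower, beside the same 21.1% and 19.1%. The interleukin 1 receptor Il1r1 read 1459 and 1434 in mutant and 1085 and 722 in wildtype pools (0.69 ± 0.29, adjusted p = 0.485). The adaptor Traf6 read 199 and 337 against 360 and 644 (-0.84 ± 0.40). The NF-kB target Birc3 was at 0.54 ± 0.29 and Stat6, the transcription factor of interleukin 4 signalling, at 0.54 ± 0.29. Nfkbia, the NF-kB inhibitor that NF-kB itself induces, read 21545 and 20839 against 22935 and 26032, and Tnf was dim, at 9.58 and 8.02 against 27.6 and 2.78. Il1a and Il1b were also dim, with both mutant pools above both wildtype pools, by a narrow margin for Il1b. Il1a read 89.3 and 144 in mutant and 76.1 and 11.5 in wildtype pools, and Il1b 131.8 and 120.1 against 119.8 and 10.9. Nfkbia and these cytokine genes were named after their values were seen.

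Genes known to restrain adhesion molecules in endothelium had 8 of 10 members kept, 4 positive and 4 negative, with a median of 0.11. Of these, 3 were separate and higher and 0 separate and lower, beside 21.1% and 19.1% of all genes. The nuclear receptor Nr4a1 was the 1 gene at an unadjusted p under 0.05, and it was higher, beside 3.93% of all genes in that direction. Its signals were 2379 and 1209 in mutant and 724 and 687 in wildtype pools (1.24 ± 0.35, adjusted p = 0.406). Nr4a1 is also an immediate early gene. Klf4, a flow-responsive transcription factor, was at 0.38 ± 0.23 and the nitric oxide synthase gene Nos3 at 0.29 ± 0.25, both with separate genotypes. Among the negative genes Socs3, named after its values were seen, was at -0.86 ± 0.41 with overlapping genotypes.

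Enzymes that build selectin ligands had 9 of 13 members kept, 8 of them positive, with a median of 0.33 beside 0.00 for all genes. The sialyltransferase St3gal4 was the 1 gene at an unadjusted p under 0.05, and it was higher, beside 3.93% of all genes in that direction. It read 662 and 879 in mutant and 320 and 453 in wildtype pools (0.96 ± 0.32, adjusted p = 0.444). St3gal6 was at 0.46 ± 0.34 and the tyrosine sulphotransferase Tpst1 at 0.04 ± 0.25. The genes below the filter, named after their values were seen and without a test, were Fut4, Fut7 and Chst4. Fut4 read 50.8 and 101 in mutant and 9.91 and 4.53 in wildtype pools, and Fut7 63.0 and 68.7 against 17.6 and 4.93. Chst4 read 58.7 and 49.8 against 6.72 and 20.8. Membrane anchors and sheddases, which hold these molecules to actin or cut them from the surface, had 14 of 16 members kept and a median of 0.37. None was at an unadjusted p under 0.05, 7 were separate and higher and 1 separate and lower, beside 21.1% and 19.1% of all genes. The GTPase Rac1 was at 0.45 ± 0.21, the exchange factor Arhgef26, which acts at ICAM1 clusters, at 0.70 ± 0.34, the protease Mmp14 at 0.50 ± 0.24 and the actin cross-linker Actn1 at 0.38 ± 0.22.

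**Figure D4:**
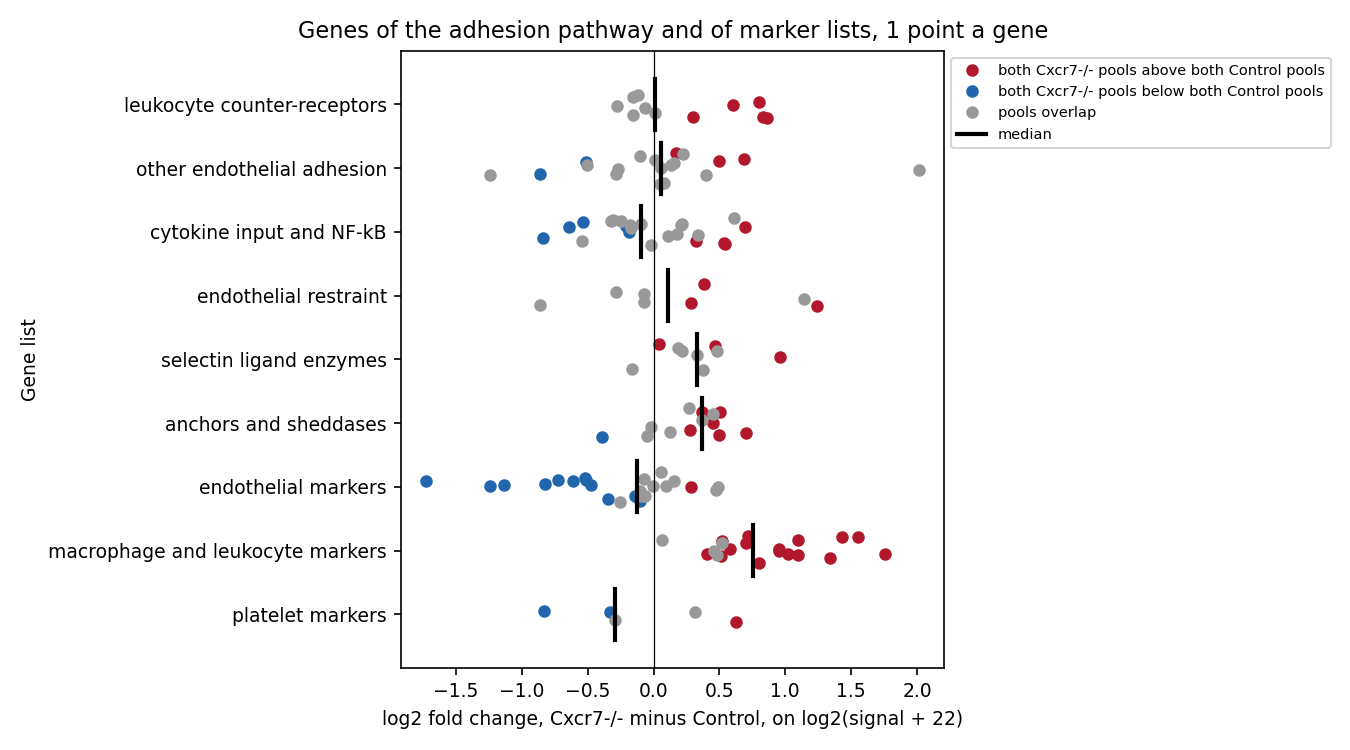
Log2 fold change of each kept gene in the 6 pathway lists and in the endothelial, macrophage and platelet marker lists, with the list's median as a black bar; red and blue points are genes whose genotypes did not overlap. Macrophage and leukocyte markers lie to the right of 0, endothelial markers reach furthest to the left, and the pathway lists spread over both sides.

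Over the 6 pathway lists together, 84 of 112 genes were kept, 7 were higher and 0 lower at an unadjusted p under 0.05, and 0 passed the adjusted threshold. At that unadjusted p, 3.93% of all genes were higher and 4.03% lower. The 7 became 2 with Cxcr7-/- replicate 1 left out, 1 when Cxcr7-/- replicate 2 was and 13 when Control replicate 1 was. Markers of other cells in the leaflets or carried with them also differed between pools. All 13 cardiomyocyte markers were negative (median -0.84), with a summed signal of 89062 and 131911 in mutant and 160744 and 222825 in wildtype pools. Medians were 0.69 for 6 neuron and Schwann cell markers, 0.10 for 13 interstitial and fibroblast markers, -0.24 for 10 smooth muscle and pericyte markers, -0.31 for 5 lymphocyte and neutrophil markers, -0.15 for 5 lymphatic endothelial markers and -0.29 for 2 erythroid markers. Single pools set some of these signs: the lymphocyte and neutrophil median was 0.54 without Cxcr7-/- replicate 1, 0.57 when Control replicate 1 was left out and -1.07 when Control replicate 2 was. The erythroid median was 0.29 without Cxcr7-/- replicate 1, and the lymphatic median 0.05 when Control replicate 1 was left out. Among markers of pericytes, which can also make Mcam, Kcnj8 was at 1.02 ± 0.30 and Abcc9 at 0.72 ± 0.23, whereas Pdgfrb was at -0.12, Cspg4 at -0.08 and Notch3 at -0.40. The contractile genes Tagln (-0.71 ± 0.24) and Acta2 (-0.61 ± 0.25) of the same list were lower in both mutant pools. The part of these cells in the members' values was not tested.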

How the data were processed

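Total RNA from pooled neonatal leaflets (50 ng, 2 rounds of amplification per the labels' protocols) was hybridised to 1 array per pool. The authors deposited intensity values, linear MAS5 signals with 1 for each probe set. Affymetrix Expression Console is the other tool in the submitters' processing notes, with versions not given in the sources used here. MAS5 subtracts a local background, so dim signals have large relative errors, and amplification lowers signal far from the 3' end. The number of arrays limits the precision.

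The 64 control probe sets of the 45101 were set aside. The pseudocount of 22 is the 25th percentile of all signals. Probe sets with a mean above the median were kept and fitted with limma 3.58.1 in R 4.3.3 (lmFit, eBayes with intensity trend, two-sided), adjusted by Benjamini-Hochberg over all 22518. The model had 2 residual and 5.85 prior degrees of freedom. An exact permutation test of 2 against 2 pools cannot give a p below 0.333 and was not used. In the platform annotation 34945 probe sets had 1 gene symbol, 932 several and 9160 none. Lists took 1 probe set a gene, the brightest. Promoters of 6 members came from RefSeq, and probe sets were not aligned. The fit was tested on simulated data. Alternatives in pseudocount, filter, scaling, trend, block and pools were run on the same values, and those centred on leukocyte markers, with crossed numbers or with raw signals for the 2-fold rule were added after the data were seen.

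Members and lists were chosen with earlier results of these data known. Named list genes are up to 4 a list with the smallest p among those with separate genotypes. Same-numbered pools deviated from their group means with a correlation of -0.26, so the numbers were not used as pairs.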

Additional observations from a re-analysis of the deposited data

How the results depend on the processing

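Of 188 alternative values of the 13 kept member probe sets, 162 kept their sign and their side of the adjusted threshold, 22 turned sign and 4 passed it with the sign kept. Of the 4, the value of the brightest Vcam1 probe set (1.26) came with Control replicate 1 left out. Control replicate 2 was then the lone wildtype pool. The rest of the 4 came with centring on macrophage and other leukocyte markers, and they belonged to Icam1 and Alcam. Median centring moved the median of all genes by 0.14 log2, and centring on endothelial markers put it at 0.31. The member log2 fold changes that turned sign with all pools were Cd34 after quantile normalization (-0.00023), 1426300_at of Alcam centred on endothelial markers (0.0061), and 1437466_at of Alcam with a pseudocount of 88 (0.0041), median centring (0.14), quantile normalization (0.12) and endothelial centring (0.31). With 1 pool left out, the brightest probe sets ranged from 0.31 to 1.26 for Vcam1, -0.83 to -0.04 for Icam1, 0.34 to 1.07 for Sele, 0.37 to 1.09 for Selp, -0.99 to -0.05 for Alcam, -0.082 to 0.40 for Icam2, -0.11 to 0.17 for Cd34 and -0.041 to 0.26 for Mcam. The ranges were -0.086 (without Control replicate 2) to 1.00 for 1451314_a_at of Vcam1, -0.89 to 0.29 for 1426300_at and -0.33 to 0.33 for 1437466_at of Alcam. A lone pool was then assumed to vary like the other genotype's.

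Centring on macrophage and other leukocyte markers, added after the data were seen, turned more values than any other setting and lowered the median of all genes to -0.84. The brightest probe sets became -0.062 for Vcam1, -0.69 for Icam2, -0.14 for Sele, -0.12 for Selp, -0.82 for Cd34 and -0.74 for Mcam, and 1451314_a_at of Vcam1 -0.39. Cd34, which turned sign, and Icam1 (-1.28), the brightest Alcam probe set (-1.37) and 1426301_at (-1.20), which kept theirs, passed the threshold. That centring gave 6837 adjusted calls, 18 higher and 11980 lower probe sets, 4 member probe sets, and 0 higher and 39 lower pathway genes at an unadjusted p under 0.05. Subtracting markers that are themselves higher in mutant pools lowers every value by construction.

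Of counts at an unadjusted p under 0.05, the 888 higher probe sets became 1415 with no filter, 579 with the filter at the 75th percentile, 1421 with median centring and 2574 with endothelial centring. The 1391 lower ones became 526, 809 and 395 under the stricter filter and both centrings. With 1 pool left out they ranged from 254 to 2459 higher and from 631 to 2363 lower, and 0 to 673 probe sets passed the adjusted threshold (673 without Control replicate 1, 8 without Cxcr7-/- replicate 2). On raw signals, 93 probe sets were 2-fold apart and higher in all cross comparisons (66 with the pseudocount) and 276 lower (174), with 0 members in either direction on both scales. The 1 member probe set became 2 with the larger pseudocount, median or endothelial centring, and 0 with the stricter filter (0 to 5 with 1 pool left out, 5 being without Control replicate 1). The 7 higher pathway genes became 12 with median centring, 21 with endothelial centring, 4 with no intensity trend and 13 counting every probe set. The 0 lower ones became 1 with no trend and 1 counting every probe set. With 1 pool left out they ranged from 1 to 13 and from 0 to 7.

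With the replicate block, 2 member probe sets, 4 higher and 1 lower pathway genes had an unadjusted p under 0.05. Crossing the pairing gave 5 probe sets past the adjusted threshold, 2 member probe sets and 2 lower pathway genes. The cause of these moves was not tested. No member is limited by depth as counts would be, but the pseudocount shrinks the differences of dim members such as Sele.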
